A study of Mus musculus with 6 samples.

Results

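Aquaporins are membrane proteins that let water follow osmotic gradients across cell membranes, and their expression was compared here between the main cell types of the mouse airway surface. The genes were chosen by family name and not by any measured value: Aqp1, Aqp2, Aqp3, Aqp4, Aqp5, Aqp6, Aqp7, Aqp8, Aqp9 and Aqp11, each present once, made up 10 of the 20315 named genes in the authors' per-gene table. Total RNA came from airway surface cells of C57BL/6 mice that were untreated as far as the labels say, and it was measured on 6 arrays. There were 2 arrays each of basal cells (EpCAM-positive cells that bind the lectin GSIβ4), ciliated cells (EpCAM-positive, GSIβ4-negative and CD24-positive) and club cells (EpCAM-positive and SSEA1-positive). Replicate arrays are titled biological replicates, but the labels state neither age, animal nor pooling, so p-values measure only the spread between these samples. All values are log2 expression after RMA, the authors' array summary method, so that 1 unit is a 2-fold difference, and errors are SD over 2 arrays for levels and SE of the fit for differences.

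An aquaporin is built of membrane-spanning helices around a narrow pore, and the channels assemble as tetramers. Aqp1, Aqp2, Aqp4 and Aqp5 are water-selective channels. Aqp3, Aqp7 and Aqp9 also pass glycerol and are called aquaglyceroporins. Aqp6 and Aqp8 have further permeabilities, Aqp6 for anions and Aqp8 for ammonia and hydrogen peroxide. Aqp11 is a distant relative that sits mainly in the endoplasmic reticulum. In rodent airways, Aqp3 is known from basal cells, Aqp4 from the basolateral membrane of the surface epithelium, Aqp5 from gland acini and alveolar type I cells, and Aqp1 from the endothelium of the vessels below.

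The mean level of each population's own markers was highest in the population of that label. The mean level of 9 basal cell markers, among them Krt5 and Trp63, was 11.46 to 11.49 in basal cells, 8.33 to 8.71 in ciliated cells and 9.32 to 9.33 in club cells. That of 9 ciliated cell markers was 11.37 to 11.44 in ciliated cells and at most 7.41 on the other arrays. That of 9 club cell markers was 13.13 to 13.15 in club cells, 12.02 to 12.28 in ciliated cells and 11.08 to 11.57 in basal cells, so club transcripts were high on all 6 arrays. Of these 9, 6 were called higher in club than in basal cells by limma and 3 were not called. Between ciliated and club cells 4 were called lower in ciliated cells and 5 were not called. The median over genes lay between 6.79 and 6.92 on the 6 arrays and the lower quartile between 5.55 and 5.69. No detection calls were used, so no gene is called absent, and the number of arrays limits the precision.

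Aqp3, Aqp5 and Aqp11 differed between cell types, and the other 7 aquaporins passed the test in no comparison. A difference was called at an adjusted p under 0.05 (limma, Benjamini-Hochberg over all genes). Of the 10 genes, 3 were called in at least 1 of the 3 comparisons, against 24 percent of all genes. In ciliated minus basal cells 2 were called, Aqp3 and Aqp5, against 17.6 percent of all genes; both were lower, as were 8.28 percent of all genes, and 0 were higher by limma, against 9.29 percent, with Aqp11 higher at an unadjusted p of 0.0283. In club minus basal cells 2 were called, against 8.02 percent of all genes; Aqp3 was lower, against 3.67 percent, and Aqp11 higher, against 4.35 percent. In ciliated minus club cells 2 were called, Aqp3 and Aqp5, against 15.4 percent of all genes; both were lower, against 7.46 percent, and none was higher by limma at an adjusted or unadjusted p under 0.05, against 7.93 percent. In a family of 10 a single call moves the share by 10 percentage points, so these counts do not set it apart from the background. The arrays of the groups compared did not overlap for 5 of the 10 genes in ciliated minus basal (53 percent of all genes), 6 in club minus basal (51.4 percent) and 8 in ciliated minus club cells (59.3 percent). The median absolute difference over the 10 genes was 0.23, 0.20 and 0.27 log2 units in the 3 comparisons, and over all genes it was 0.24, 0.23 and 0.24. The comparisons share arrays with one another and are not independent.

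**Figure D1:**
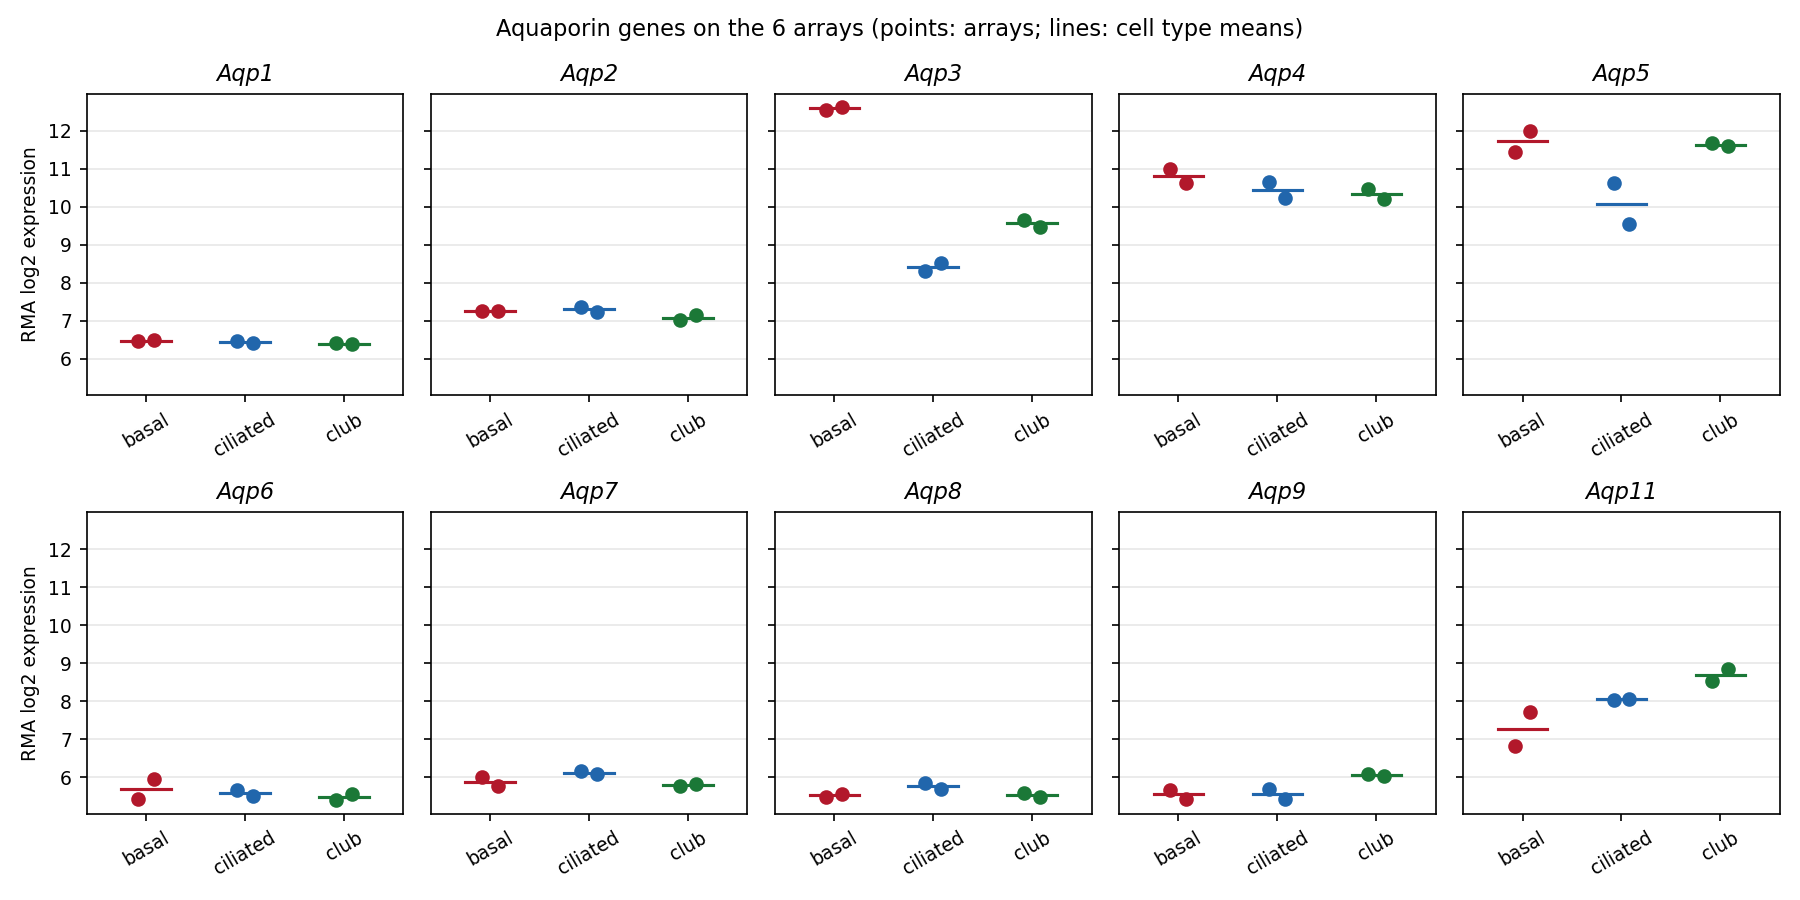
RMA log2 expression (vertical axis) of the 10 aquaporin genes on the 2 basal, 2 ciliated and 2 club arrays; points are arrays and lines are cell type means. Aqp3 is at 12.55 and 12.61 in basal cells and below 9.7 on the other arrays, Aqp5 is lowest on the ciliated arrays, Aqp11 is highest on the club arrays, and the other 7 genes each span under 1 log2 unit.

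The 3 genes that differed are described first with the bases upstream of their annotated starts. RefSeq windows of 250 bases before the start were taken from the mouse assembly GRCm38.p6 and are shown 5′ to 3′ in the direction of the gene, with capitals for matches to TATAAA (the TATA box) or GGGCGG (the GC box) on either strand. CCAAT, also searched on both strands, has no match in them. They are shown to set the sequence beside the expression pattern, and a match is only a description of the letters.
Aqp3, chr4:41098184-41098433, minus strand: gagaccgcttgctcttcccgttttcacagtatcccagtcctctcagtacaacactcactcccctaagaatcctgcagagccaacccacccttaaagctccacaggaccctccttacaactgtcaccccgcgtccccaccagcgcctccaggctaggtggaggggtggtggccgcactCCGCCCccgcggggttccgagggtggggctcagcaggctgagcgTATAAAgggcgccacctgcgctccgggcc
Aqp5, chr15:99590778-99591027, plus strand: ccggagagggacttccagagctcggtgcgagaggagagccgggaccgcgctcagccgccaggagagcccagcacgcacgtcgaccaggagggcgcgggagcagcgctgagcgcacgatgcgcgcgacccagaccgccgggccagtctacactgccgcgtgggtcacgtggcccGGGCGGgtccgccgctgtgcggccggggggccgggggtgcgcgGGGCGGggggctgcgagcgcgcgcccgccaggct
Aqp11, chr7:97738248-97738497, minus strand: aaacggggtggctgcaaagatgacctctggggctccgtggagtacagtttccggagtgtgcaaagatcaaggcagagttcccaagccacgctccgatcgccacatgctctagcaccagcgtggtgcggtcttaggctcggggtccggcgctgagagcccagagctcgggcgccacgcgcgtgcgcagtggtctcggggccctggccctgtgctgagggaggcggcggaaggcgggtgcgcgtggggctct
The Aqp3 window holds 1 TATAAA at positions -29 to -24 from the start and 1 GC box on the opposite strand at -73 to -68. The Aqp5 window holds 2 GC boxes at -77 to -72 and -34 to -29, and the Aqp11 window holds none of the 3 motifs. Of 32851 mouse windows of this length, 12.4 percent hold TATAAA, 32.7 percent GGGCGG and 33.8 percent CCAAT. The base content is 64.0 percent G and C for Aqp3, 78.4 percent for Aqp5 and 67.2 percent for Aqp11, against a median of 52.4 percent over all windows, and they hold 14, 38 and 23 CpG dinucleotides. Windows were matched for 9 of the 10 genes by symbol.

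Aqp3, the aquaglyceroporin of basal cells, was the aquaporin with the widest range, 4.32 log2 units over the 6 arrays, a range wider than that of 98.9 percent of all genes. It was at 12.55 and 12.61 on the basal arrays, 8.29 and 8.52 on the ciliated arrays and 9.66 and 9.47 on the club arrays. Each cell type was thus separate from the others, with basal cells highest, club cells in between and ciliated cells lowest. The means were 12.58 ± 0.04 in basal cells, 9.56 ± 0.13 in club cells and 8.41 ± 0.16 in ciliated cells (SD, n = 2 each).

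All 3 steps in the order of Aqp3 levels exceeded the replicate error. Aqp3 was 18.1-fold lower in ciliated than in basal cells (difference -4.17 ± 0.16, limma adjusted p = 6.0e-06). It was 8.11-fold lower in club than in basal cells (-3.02 ± 0.16, limma adjusted p = 0.000156). Between the luminal types it was 2.23-fold lower in ciliated than in club cells (-1.15 ± 0.16, limma adjusted p = 0.00299, 95% interval -1.54 to -0.77). In RNA of sorted populations, a lower share of cells that carry a transcript and less of it per cell cannot be told apart. The mean level of the 9 basal cell markers ran in the same order of cell types. Of these markers, 9 were called lower in ciliated and 7 lower in club than in basal cells. Between ciliated and club cells 3 were called lower in ciliated cells and 6 were not called. The part of these markers in the Aqp3 result was not tested. In the authors' deposited table, the basal z-score of Aqp3 is 1.76, which is rank 253 of 20315 genes.

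Aqp5, the water channel of secretory acini and alveolar type I cells, was lower in ciliated cells than in basal and club cells. Its levels in basal and club cells were alike, and it lay well above the array median on every array. It was at 10.61 and 9.55 on the ciliated arrays, 11.44 and 11.99 on the basal arrays and 11.66 and 11.61 on the club arrays. Both ciliated arrays lay below the 4 others, while the basal and club arrays overlapped. The means were 11.72 ± 0.39 in basal cells, 11.63 ± 0.04 in club cells and 10.08 ± 0.75 in ciliated cells (SD, n = 2 each). The gap of 1.06 between the ciliated arrays was the widest replicate gap among the 10 genes.

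Aqp5 was 3.12-fold lower in ciliated than in basal cells (-1.64 ± 0.35, limma adjusted p = 0.0154) and 2.94-fold lower in ciliated than in club cells (-1.56 ± 0.35, limma adjusted p = 0.0216). Club and basal cells did not differ beyond their spread (-0.09 ± 0.35, limma adjusted p = 0.91), although the 95% interval of -0.90 to 0.72 leaves room for a difference of nearly 1 unit. The ciliated minus basal call ended without ciliated replicate 2 (-1.11, limma adjusted p = 0.0705) or basal replicate 2 (-1.37, limma adjusted p = 0.0528). The ciliated minus club call ended without ciliated replicate 2 (-1.02, limma adjusted p = 0.0986), club replicate 1 (-1.53, limma adjusted p = 0.0977) or club replicate 2 (-1.58, limma adjusted p = 0.0801), and when all probe sets of the matrix were tested (limma adjusted p = 0.0652).

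Markers of other cells known to use Aqp5 did not all follow its order. Of 6 measured markers of gland serous cells, 3 were called higher in ciliated than in basal cells and none lower. In club minus basal cells 5 were called higher and none lower. In ciliated minus club cells 1 was called lower, 3 were lower at an unadjusted limma p under 0.05, and none was higher. The mean level of the 6 was 10.41 to 10.48 in basal cells, 11.35 to 11.98 in ciliated cells and 12.84 to 12.97 in club cells. Aqp5 instead was lowest in ciliated cells. Of 6 alveolar type I markers, 1 was called higher and 1 lower in ciliated than in basal cells, with a mean level of 7.47 to 7.82 in basal cells, 7.69 to 7.70 in ciliated cells and 7.25 to 7.35 in club cells. In club minus basal cells 1 was called higher and 1 lower, and in ciliated minus club cells 2 were called higher and 1 lower. Ager, the receptor that marks alveolar type I cells, was at 7.39 ± 0.01 in basal cells, 7.21 ± 0.20 in ciliated cells and 6.92 ± 0.13 in club cells (mean with the SD of 2 arrays) and passed in no comparison. Other markers of the list, named with their values known, were called in differing directions. Hopx was higher (2.30 ± 0.23) and Cav1 lower (-1.95 ± 0.30) in ciliated than in basal cells. Clic5 was higher (1.54 ± 0.19) and Cav1 lower (-3.42 ± 0.30) in club than in basal cells. The part of either cell type in the Aqp5 levels was not tested.

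Aqp11, the channel of the endoplasmic reticulum, was highest in club cells. It was at 8.52 and 8.85 on the club arrays, 8.03 and 8.07 on the ciliated arrays and 6.81 and 7.71 on the basal arrays. The arrays of the 3 types did not overlap, with club above ciliated above basal, but the basal arrays lay 0.90 apart. The means were 8.68 ± 0.23 in club cells, 8.05 ± 0.03 in ciliated cells and 7.26 ± 0.64 in basal cells (mean with the SD of 2 arrays).

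Only the outer step of the Aqp11 order passed the test. Aqp11 was 2.68-fold higher in club than in basal cells (1.42 ± 0.29, limma adjusted p = 0.0270). The steps between its neighbours in the order did not pass after adjustment over all genes, although the arrays of neighbouring types did not overlap. Ciliated minus basal was 0.79 ± 0.29 (95% interval 0.11 to 1.47, limma unadjusted p = 0.0283, adjusted p = 0.119), and ciliated minus club was -0.63 ± 0.29 (95% interval -1.31 to 0.05, limma unadjusted p = 0.0635, adjusted p = 0.218). The club minus basal call ended without ciliated replicate 1 or 2 (limma adjusted p = 0.0774 each, the difference itself unchanged at 1.42), without club replicate 1 (1.58, limma adjusted p = 0.0740) or club replicate 2 (1.26, limma adjusted p = 0.139), and with the 4 club and basal arrays alone (limma adjusted p = 0.0774) or all probe sets tested (limma adjusted p = 0.0879). Without basal replicate 2, Aqp11 passed in club minus basal (1.87, limma adjusted p = 0.00246) and also in ciliated minus basal cells (1.24, limma adjusted p = 0.00588), and without basal replicate 1 or 2, or with the ciliated and club arrays alone, it passed in ciliated minus club cells (-0.63, limma adjusted p = 0.0387 in each case).

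**Figure D2:**
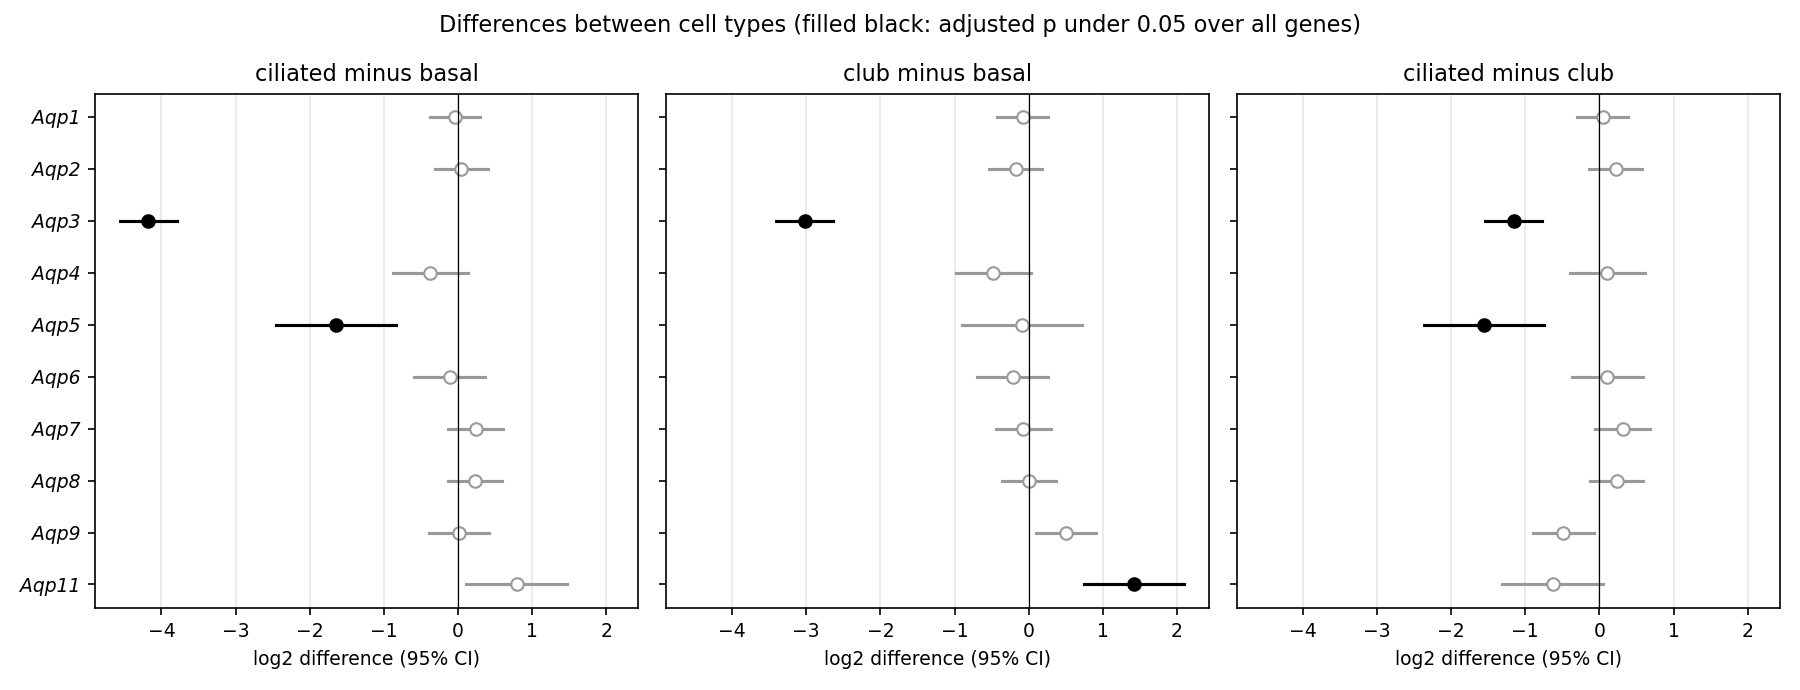
Differences in log2 expression (horizontal axis, shared by the panels) of the 10 aquaporin genes in the 3 comparisons, with 95% confidence intervals of the limma fit; filled black points passed the test over all genes. Aqp3 passed in all 3 panels, Aqp5 in both comparisons with ciliated cells and Aqp11 in club minus basal cells.

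Aqp4, the water-selective channel of basolateral membranes, was well above the array median in every cell type. It was at 11.00 and 10.61 on the basal arrays, 10.64 and 10.23 on the ciliated arrays and 10.45 and 10.21 on the club arrays. The 3 cell types overlapped except for basal against club cells. The order of the means, 10.81 ± 0.27 in basal cells, 10.44 ± 0.29 in ciliated cells and 10.33 ± 0.17 in club cells (SD, n = 2 each), held no step beyond the replicate spread. The widest difference, club minus basal, was -0.48 ± 0.22 (limma adjusted p = 0.258, 95% interval -0.98 to 0.03), so a fall of about 1 unit in club cells is within the interval and a rise of more than 0.03 is not. The interval of ciliated minus club was -0.40 to 0.61.

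The other aquaglyceroporins, Aqp7 and Aqp9, passed in no comparison. Aqp7, a glycerol channel of adipocytes, was at 5.99 and 5.77 in basal cells, 6.17 and 6.07 in ciliated cells and 5.78 and 5.83 in club cells. These values lay below the array median on all 6 arrays, and the widest difference, ciliated minus club, was 0.31 ± 0.16 (limma adjusted p = 0.264). Aqp9, a glycerol and urea channel of hepatocytes and leukocytes, was at 6.08 and 6.03 on the club arrays, 5.68 and 5.43 on the basal arrays and 5.70 and 5.44 on the ciliated arrays. The club arrays were above the 4 others, which overlapped. The difference was small, 0.50 ± 0.17 in club minus basal (limma adjusted p = 0.144) and -0.48 ± 0.17 in ciliated minus club cells (limma adjusted p = 0.117), and it failed the adjustment in both, with unadjusted p of 0.0215 and 0.0252. Of 7 neutrophil and macrophage markers none was called between ciliated and club cells, by limma with or without adjustment, 2 were lower in club than in basal cells, and 5 were below the array median on all 6 arrays. The part of neutrophils and macrophages in the Aqp9 levels was not tested.

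In the authors' deposited table, Aqp9 has a club z-score of 1.66, rank 483 of 20315 genes, above the club z-score of 1.37 and rank 1622 of Aqp11. This score divides by the spread of the gene's own 6 values, so it ranks a gene with a club excess of 0.50 log2 units above one with an excess of 1.42 over basal cells. The deposited table also gives Aqp7 and Aqp8 ciliated z-scores of 1.56 and 1.59, ranks 1840 and 1705, and neither passed a limma comparison.

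The remaining channels were nearly level across the cell types. Aqp1, the channel of endothelium and red blood cells, lay between 6.39 and 6.50 on all 6 arrays, a span of 0.11 that is narrower than that of all but 0.226 percent of genes. Of 7 endothelial markers none was called by limma in any comparison, and at most 1 in each direction had an unadjusted p under 0.05. Below the array median on all 6 arrays were 5 of them. Cdh5, the endothelial cadherin, was at 5.41 ± 0.0023 in basal cells, 5.46 ± 0.14 in ciliated cells and 5.26 ± 0.25 in club cells (mean with the SD of 2 arrays). Pecam1 and Cldn5 are named with their values known. Pecam1 was at 8.44 and 6.73 on the club arrays, 6.54 and 6.23 on the basal arrays and 6.37 and 6.29 on the ciliated arrays. Cldn5 ran the other way, at 6.76 ± 0.39 in basal cells and 6.06 ± 0.0043 in club cells. The part of endothelial cells in the Aqp1 levels was not tested. Aqp2, the vasopressin-regulated channel of the kidney, lay between 7.01 and 7.37. Aqp6, an intracellular channel of the kidney, lay between 5.40 and 5.95, and Aqp8 between 5.47 and 5.84. Values of Aqp6, Aqp8 and Aqp9 were below the lower quartile of the array on 4, 3 and 2 of the 6 arrays, a range in which small differences cannot be read as expression. Aqp12, a pancreatic member of the family that the chosen list leaves out, is named here after its values were seen: it lay between 6.21 and 6.88 and passed in no comparison.

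Neighbouring aquaporin genes were not called together. In the RefSeq gene table Aqp7 is the protein-coding gene next to Aqp3 on chromosome 4, and Aqp2, Aqp5 and Aqp6 follow each other on chromosome 15 with no other protein-coding gene between them. Aqp3 differed in all 3 comparisons and Aqp7 in none. Of the trio on chromosome 15, Aqp5 was called in 2 comparisons, while the differences of Aqp2 were at most 0.22 log2 units and those of Aqp6 at most 0.22 in size, none of them called.

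The genes whose profiles came closest to those of the 3 called aquaporins were found by the root mean square distance over the 6 arrays after each gene was centred on its own mean. Predicted or unnamed genes, olfactory and vomeronasal receptor genes and the aquaporins themselves were passed over, so a closer profile among those is not shown. Closest to Aqp3 were Tgm2, a transglutaminase (distance 0.244 log2 units, Pearson r = 0.990 over 6 arrays), Nectin1, a cell adhesion molecule (0.248, r = 0.997), and Ehd2, a protein of caveolae (0.263, r = 0.989). Tgm2 was at 12.32 in basal cells, 8.03 in ciliated cells and 9.66 in club cells. Closest to Aqp5 were Adh7, an alcohol dehydrogenase that oxidises retinol (0.220, r = 0.966), F5, coagulation factor V (0.229, r = 0.962), and the small nucleolar RNA gene Snord104 (0.237, r = 0.970). Closest to Aqp11 were Sult1a1, a phenol sulfotransferase (0.0958, r = 0.989), Limch1, an actomyosin-binding protein (0.112, r = 0.985), and Dhrs11, a dehydrogenase (0.148, r = 0.974). The correlations are descriptions over 6 arrays that fall into 3 cell types.

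**Figure D3:**
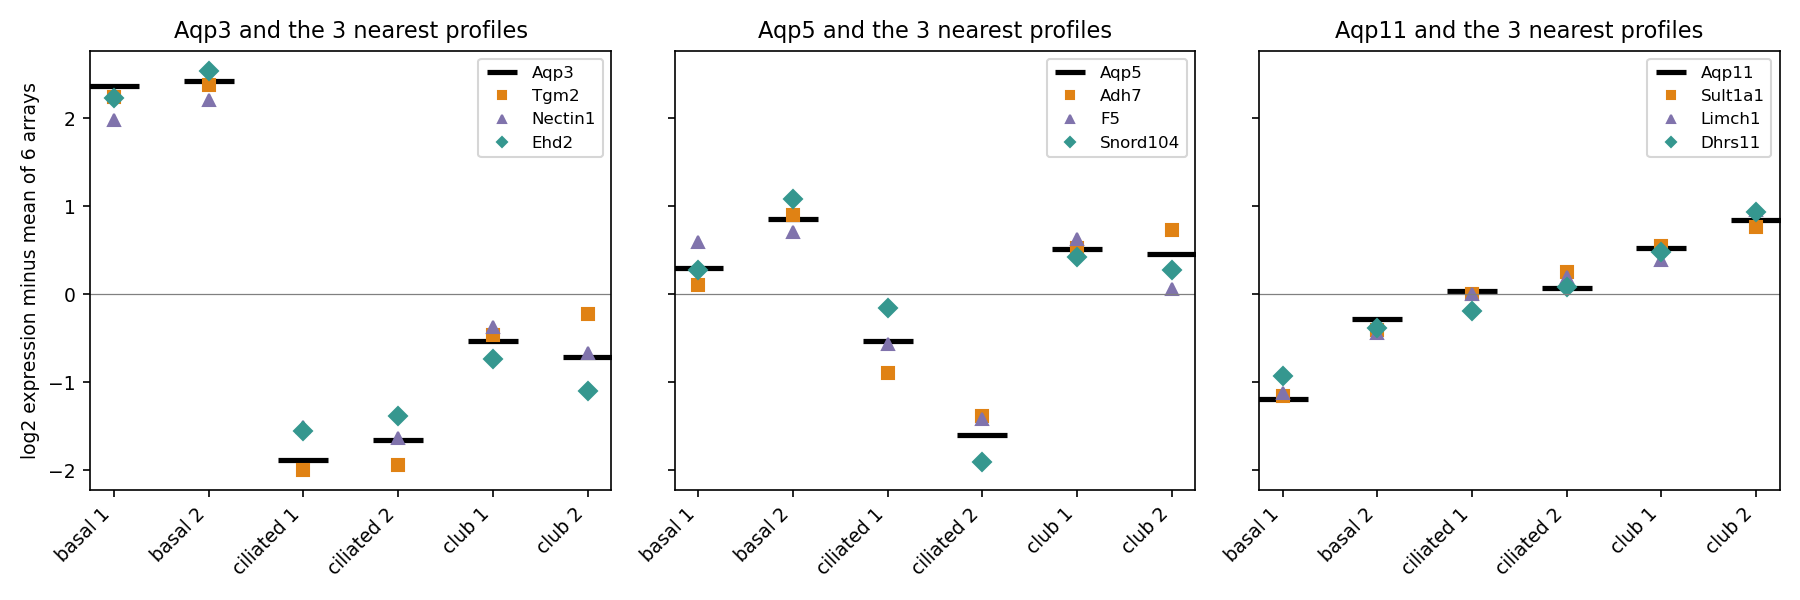
Log2 expression minus the mean of the 6 arrays (vertical axis) for Aqp3, Aqp5 and Aqp11 (black bars) and the 3 genes with the nearest profile to each among the genes not passed over (coloured points), by array. Distances to the named genes are 0.0958 to 0.148 log2 units for Aqp11, against 0.220 to 0.263 for Aqp5 and Aqp3. They are not scaled to a gene's own range, which is 2.03 log2 units for Aqp11, 2.45 for Aqp5 and 4.32 for Aqp3. Pearson r is 0.974 to 0.989 for Aqp11 and 0.989 to 0.997 for Aqp3.

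Water follows salt and other solutes, so genes of salt transport, cell volume, glycerol metabolism and aquaporin anchoring and trafficking were set beside the channels. The lists were chosen with earlier results of these data known. Of 22 genes of salt and fluid transport, 7 were higher and 3 lower in ciliated than in basal cells, 9 higher and none lower in club than in basal cells (1 lower at an unadjusted limma p under 0.05), and 3 higher and 8 lower in ciliated than in club cells. Of all genes, 9.29 percent were called higher and 8.28 percent lower in ciliated minus basal cells. These shares were 4.35 and 3.67 percent in club minus basal and 7.93 and 7.46 percent in ciliated minus club cells. Whether any of the lists departs from the shares of all genes was not tested. The list's median difference was 0.17, 0.66 and -0.19, against -0.02, -0.06 and 0.04 over all genes. The calcium-activated chloride channel gene Ano1 was at 11.41 ± 0.01 in club cells, 9.98 ± 0.19 in basal cells and 8.19 ± 0.55 in ciliated cells. Slc12a2, the cotransporter that loads chloride into secreting cells, was at 10.89 ± 0.17, 8.87 ± 0.95 and 8.19 ± 0.53, and the potassium channel subunit gene Kcne3 at 9.61 ± 0.18, 7.19 ± 1.2 and 6.91 ± 0.64, in the same order of cell types (SD, n = 2 each). Ano1, Slc12a2 and Kcne3 passed in both comparisons with club cells (limma adjusted p at most 0.0323), while the basal and club levels of Aqp5 overlapped. Alternatives were run for these 3 genes only in ciliated minus club cells, so their club minus basal calls were not put through them. Without ciliated replicate 2, Kcne3 (limma adjusted p = 0.112) and Slc12a2 (limma adjusted p = 0.0614) lost the ciliated minus club call, as Kcne3 did without club replicate 1 (limma adjusted p = 0.0629), and the list's called genes went from 10 to 5 in ciliated minus basal and from 11 to 4 in ciliated minus club cells; in ciliated minus club cells they were 6 without club replicate 1, and in club minus basal cells they went from 9 to 5 without club replicate 1 and to 4 without club replicate 2.

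Of 19 cell volume and tonicity genes, 4 were higher and 3 lower in ciliated than in basal cells, 2 higher and 4 lower in club than in basal cells, and 5 higher and 3 lower in ciliated than in club cells. In the same comparisons 17.6, 8.02 and 15.4 percent of all genes were called in either direction. Of the volume-regulated anion channel subunits, Lrrc8c was lower by 2.86 ± 0.21 log2 units in ciliated than in basal cells, while Lrrc8b was higher by 2.32 ± 0.19 and Lrrc8e by 0.90 ± 0.19 (limma adjusted p = 0.0154). Lrrc8a (-0.28 ± 0.16, limma adjusted p = 0.320) and Lrrc8d (-0.40 ± 0.20, limma adjusted p = 0.270) did not pass in that comparison; Lrrc8a, Lrrc8d and Lrrc8e were chosen for naming with their values known. The potassium-chloride cotransporter gene Slc12a4 was at 8.79 ± 0.29 in basal cells, 6.73 ± 0.07 in ciliated cells and 6.64 ± 0.10 in club cells (SD, n = 2 each). Trpv4, an osmosensitive cation channel gene named after its values were seen, was at 10.57 ± 0.34 in basal cells, 9.35 ± 0.34 in club cells and 8.80 ± 0.18 in ciliated cells, and was called lower in both luminal types than in basal cells. Called genes of the list went from 6 to 2 in club minus basal cells without club replicate 1, and from 8 to 4 in ciliated minus club cells without either ciliated array and to 5 without either club array.

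Of 18 glycerol metabolism genes, 6 were higher and 1 lower in ciliated than in basal cells, 5 higher and none lower in club than in basal cells (1 lower at an unadjusted limma p under 0.05), and 2 higher and 2 lower in ciliated than in club cells. The shares of all genes called in either direction were 17.6, 8.02 and 15.4 percent. Gpd1 encodes the cytosolic glycerol-3-phosphate dehydrogenase. It was at 6.59 ± 0.18 in basal cells, 10.15 ± 0.13 in ciliated cells and 9.63 ± 0.19 in club cells. Any relation of the levels of this list to those of Aqp3 was not tested. Plin2, a lipid droplet coat protein, was higher by 2.08 ± 0.26 log2 units in club than in basal cells, and the triglyceride-forming enzyme gene Dgat2 by 2.01 ± 0.28 in ciliated than in basal cells. Called genes of this list went from 7 to 4 and 3 in ciliated minus basal cells without ciliated replicates 1 and 2. In ciliated minus club cells they went from 4 to 7 without either basal array, to at most 1 without either ciliated array, and to 2 and 1 without club replicates 1 and 2.

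Of 18 genes of the dystrophin complex and aquaporin trafficking, 5 were higher and 3 lower in ciliated than in basal cells, 3 higher and 2 lower in club than in basal cells, and 3 higher and 2 lower in ciliated than in club cells. Calls in either direction were made for 17.6, 8.02 and 15.4 percent of all genes. Agrn, a basement membrane proteoglycan that binds dystroglycan, was at 10.62 ± 0.04 in basal cells, 9.05 ± 0.38 in club cells and 7.64 ± 0.28 in ciliated cells. Msn, a linker of membrane proteins to actin, was lower by 2.92 ± 0.20 log2 units in club than in basal cells, and Prkar2b, a regulatory subunit of protein kinase A, was higher by 2.40 ± 0.25 in ciliated than in basal cells. Called genes of this list went from 8 to 5 and 4 in ciliated minus basal cells without ciliated replicates 1 and 2, and from 5 to 3 in club minus basal cells without either ciliated or either club array. In ciliated minus club cells they went from 5 to 1 without either ciliated array or club replicate 1 and to 2 without club replicate 2.

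**Figure D4:**
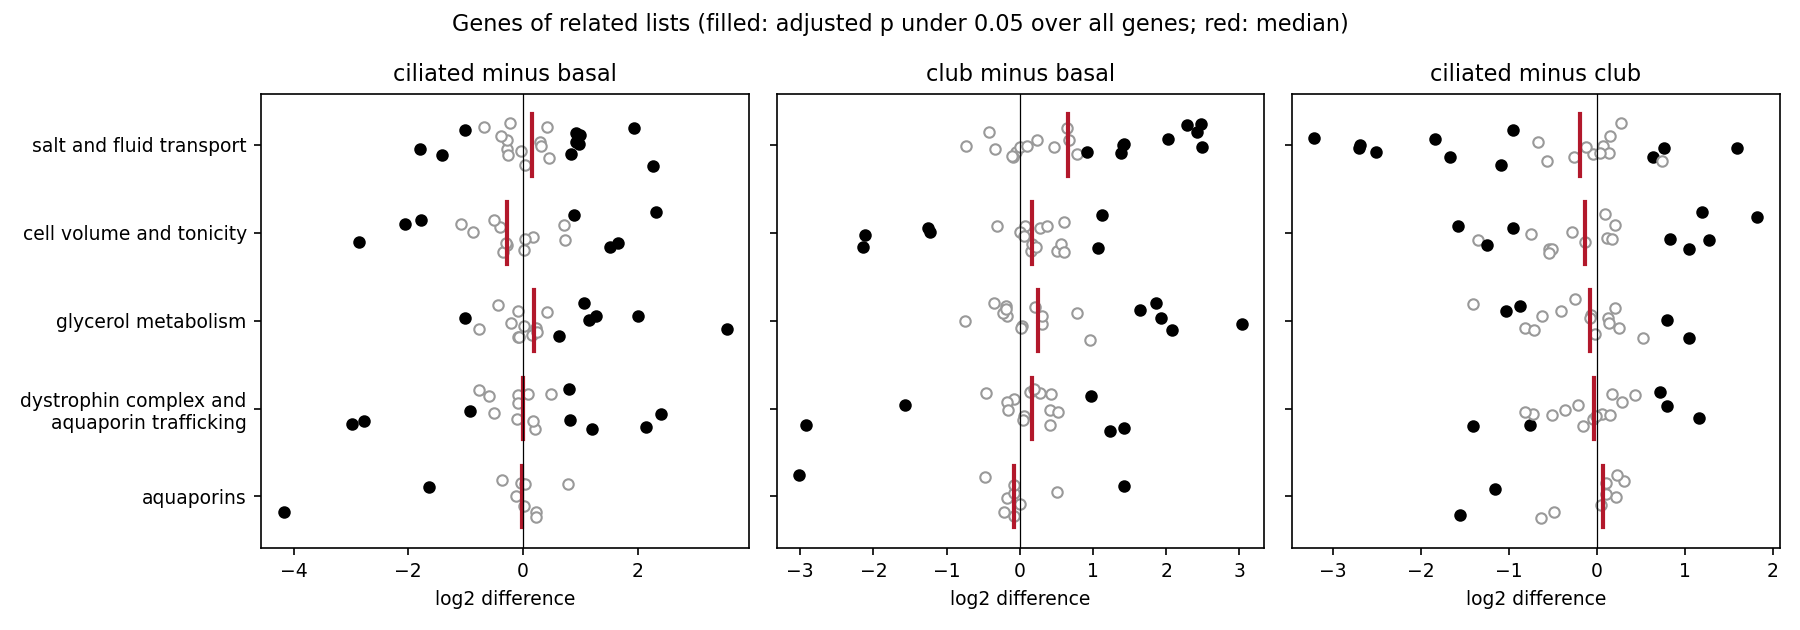
Differences in log2 expression (horizontal axes, a scale for each panel) of the genes in 4 related lists and of the aquaporins in the 3 comparisons; filled points passed the limma test over all genes and red bars are medians. The salt and fluid transport list has 9 of 22 genes called higher and none lower in club minus basal cells, against 4.35 and 3.67 percent of all genes. The aquaporin median is -0.01, -0.08 and 0.07 in the 3 panels.

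**Figure D5:**
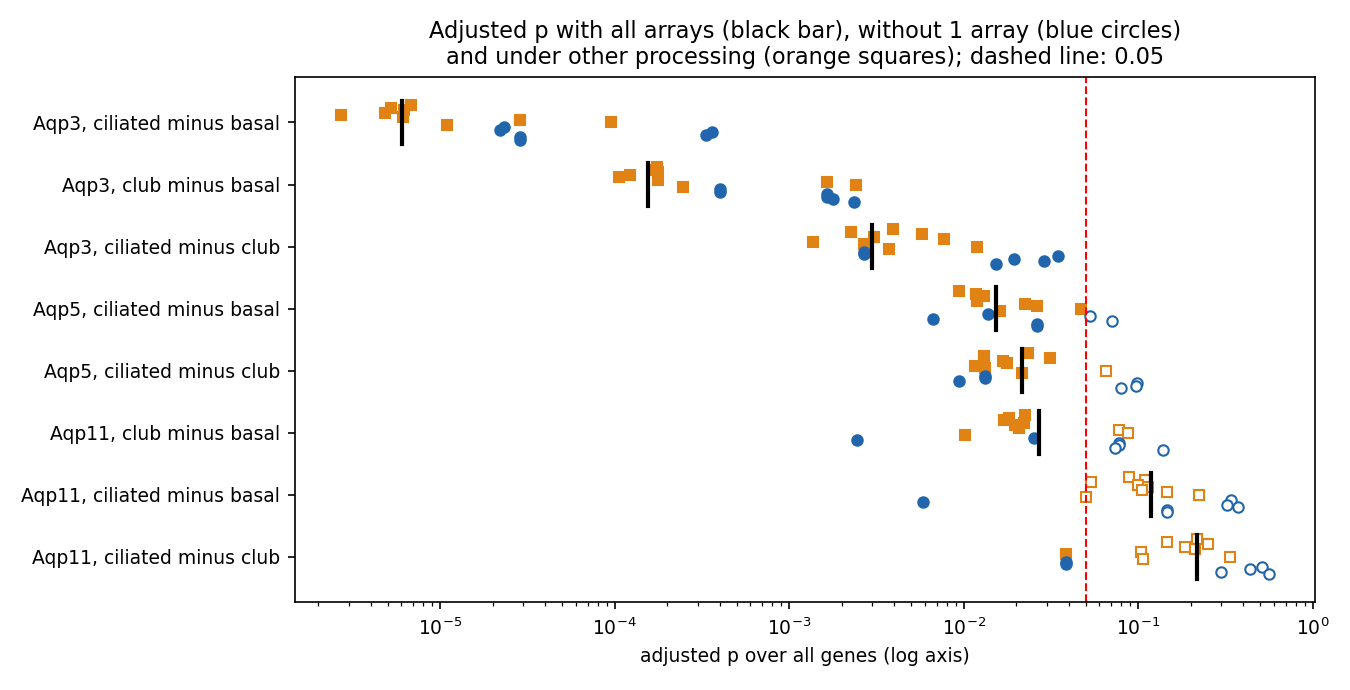
Adjusted p over all genes (horizontal log axis) of the Aqp3, Aqp5 and Aqp11 differences named in the text. Black bars are all arrays, blue circles leave out 1 array and orange squares are other processing. Open symbols did not pass 0.05. Leaving out either array of the cell type not compared gives the same fit as using only the 2 cell types compared. These settings are not separate checks. All 15 alternatives kept each Aqp3 call, while 2 ended the Aqp5 call in ciliated minus basal, 4 ended that in ciliated minus club and 6 ended the Aqp11 call in club minus basal cells.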

How the data were processed

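Total RNA of sorted airway epithelial cells was extracted with Trizol and labelled with biotin for Affymetrix arrays, per the labels' protocols. The authors deposited log2 values after RMA, per the submitters' processing notes, both for every probe set and as a single value for each gene symbol. The array platform, the build and the rule that reduced probe sets to genes are not stated in the labels or file headers used here. Each of the 10 aquaporin genes equalled 1 probe set of the matrix on all 6 arrays, within 1e-06. The deposited score per gene and cell type is the authors' z-score, per the file headers. The 1 line without a symbol was left out, and 18 columns of another kind of sample were not used.

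With limma 3.58.1 in R 4.3.3, each cell type got its own mean in a model of the 6 arrays over 20315 genes, without filter or further normalization, and gene variances were shrunk by empirical Bayes (prior SD 0.188 and 7.30 degrees of freedom in total). The same fit was tested on simulated data. All 10 aquaporins are named. Of each related list, the 3 called genes with the largest difference are named, and for each called aquaporin the 3 nearest profiles. For these profiles, aquaporins and predicted, unnamed, olfactory receptor and vomeronasal receptor genes were passed over. The aquaporins were chosen by family name and not by their values, but they and the lists were chosen with earlier results of these data known. Alternatives covered normalization, a filter on dim genes, the variance model, array weights, the samples and features tested, the replicate number as a block and leaving out each array.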

Additional observations from a re-analysis of the deposited data

How the results depend on the processing

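With all arrays, 2 aquaporins were called in each comparison. In club minus basal cells the count was 1 with only the 2 cell types compared and 1 with all probe sets of the matrix tested, and in ciliated minus club cells it was 1 with all probe sets tested. Leaving out each array in turn gave 1 to 2 called genes in ciliated minus basal, 1 to 2 in club minus basal and 1 to 3 in ciliated minus club cells. Without basal replicate 2 the count in ciliated minus basal stayed at 2, but Aqp11 had replaced Aqp5. Over all genes, leaving out an array moved the count of calls from 3570 to between 1907 and 3807, from 1629 to between 783 and 2534, and from 3126 to between 1587 and 3978 in the 3 comparisons. When only genes whose mean was above the lower quartile were tested, Aqp6 and Aqp8 were left out and have no value.

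The 4 related lists and the 12 genes named from them were run through the same alternatives, apart from the probe set matrix, by a choice made after the data were seen. Each of these genes was run only in the comparison of its largest called difference. Of 168 differences of these genes 3 missed the threshold and none changed sign, and 31 of 168 list counts moved by more than 1.5 times. Those outside the single-array settings were in club minus basal cells 3 called genes of the dystrophin complex and aquaporin trafficking with only the 2 cell types compared, against 5, and in ciliated minus club cells 2 genes of that list with a variance trend and robust prior, against 5, and 7 glycerol metabolism genes with only the 2 cell types compared, against 4.

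The replicate numbers were also fitted as a replicate block. The deviations of same-numbered arrays correlated at 0.0521 for basal and ciliated, 0.265 for basal and club and 0.260 for ciliated and club cells. Whether the numbers pair the arrays was not tested, and the main fit leaves them out. With the replicate block, 2 aquaporins were called in each of the 3 comparisons. The counts over all genes were 4104, 2024 and 3739, against 3570, 1629 and 3126 without it.

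Sign changes touched only differences that were never called. In ciliated minus basal cells Aqp9 was at -0.0017 with quantile normalization applied again and Aqp1 at 0.014 with cyclic loess. In club minus basal cells, Aqp1 was at 0.022 and Aqp7 at 0.015 with quantile normalization, Aqp7 at 0.0049 with each array centred on its median, and Aqp1 at 0.053 and Aqp7 at 0.045 with cyclic loess. In ciliated minus club cells Aqp1 was at -0.070, -0.039 and -0.039 under quantile normalization, centring and cyclic loess. Leaving out an array turned the sign of Aqp2 (-0.023 to 0.11), Aqp6 (-0.37 to 0.14) and Aqp9 (-0.11 to 0.15) in ciliated minus basal, of Aqp5 (-0.36 to 0.19), Aqp6 (-0.48 to 0.039), Aqp7 (-0.19 to 0.035) and Aqp8 (-0.056 to 0.060) in club minus basal, and of Aqp4 (-0.10 to 0.31) in ciliated minus club cells. The cause of these changes was not tested.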
